A study of Mus musculus with 2 samples.

Results

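The metallothioneins and the zinc transport genes measured here are 7 genes (Mt1, Mt2, Mt3, Mt4, Mtf1, Slc30a1 and Slc39a14), taken by matching their names to the gene names of the array design. They carried 11 of the 56590 non-control probes present on both arrays, which carry 37067 gene names. The scanner software called all 11 probes well above background on both arrays, so all 7 genes passed that filter (Mt4 did not pass a stricter one). Total RNA came from cochleae of female C57BL/6 mice, an inbred laboratory strain, at 7 weeks of age. For the noise sample (Noise3h) the exposure to intense noise lasted 2 hours and tissue was taken 3 hours later, while the mice of the baseline sample (Baseline0707) met no noise. Each sample was read on 1 Agilent 1-colour array, and the labels do not give the number of mice behind a sample. With 1 array per group there was no replicate, no test across animals was possible, and each difference below is a difference between 2 arrays.

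Metallothioneins are small cysteine-rich proteins that bind zinc and copper and take up reactive oxygen species. Zinc entering the cytosol is sensed by the transcription factor MTF-1, the product of Mtf1, which binds metal response elements in the promoters of Mt1, Mt2 and Slc30a1 and raises their transcription. Slc30a1 encodes ZnT1, the exporter that moves zinc out across the plasma membrane, and Slc39a14 encodes ZIP14, an importer of zinc, iron and manganese that interleukin-6 induces in liver. Glucocorticoids and interleukin-6 also induce Mt1 and Mt2 in many tissues. Mt3 is expressed mainly in the brain, and Mt4 in stratified squamous epithelia.

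At 3 hours after noise the widely expressed metallothionein genes Mt1 and Mt2 were higher by less than 2-fold, and the other 5 genes lay closer to 0 or below it. Levels are given as processed signal, the background-subtracted brightness of a probe in scanner units. The log2 ratio is noise minus baseline after each array was divided by its 75th percentile, which was 316 for noise and 278 for baseline. This scaling takes 0.18 off the log2 ratio of the unscaled signals. None of the 7 genes was at least 2-fold higher or lower. Over all 26528 measured genes, 1.86% were at least 2-fold higher or lower, made up of 0.611% higher (162 genes) and 1.25% lower (332 genes). That split was 351 higher and 186 lower with spike-in scaling, and 56 higher and 74 lower with the normexp background. The median log2 ratio of the 7 genes was -0.12, with 3 above 0 and 4 below 0. Over all measured genes the median was -0.01, with 47.5% above 0. Scaled by the spike-in probes, which raised the median of all genes to 0.21, 5 of the 7 were above 0.

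Mt2 had a processed signal of 20453 after noise, against 12988 at baseline. Its log2 ratio was 0.47, or 1.39-fold, and 5.14% of all measured genes had a ratio at least as high. The Mt2 probe lies on chromosome 8 from 96697371 to 96697430 (mm9). For scale, a log2 ratio from single spots had an SD of 0.069 by the repeat spots on these arrays, which covers the spot-to-spot error and no difference between animals.

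Mt1 was read by 2 probes that ran the same way and differed in size. The bright probe, designed to the main transcript and lying on chromosome 8 from 96704165 to 96704224, had a signal of 31006 after noise and 24292 at baseline, giving a log2 ratio of 0.17. The dim probe, from 96703844 to 96703903, is assigned by the array design to a predicted transcript variant and had a signal of 219 after noise and 126 at baseline, giving a log2 ratio of 0.62. The Mt1 probes thus lay 0.45 apart. Over 9348 genes the SD of single probes about the mean of their gene was 0.27, and a difference between 2 probes varies more than that. The median of the 2 probes was 0.39 (1.31-fold), and 7.29% of measured genes were at least as high. By probe, 24.3% of measured probes were at least as high as the bright probe and 2.91% as the dim one. No non-control spot of either array was saturated, and the saturation value of the scanner was 777073. The 24 matching bases shared by the Mt2 probe and the bright Mt1 probe in their best ungapped alignment, out of 60, included no run longer than 7.

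**Figure D1:**
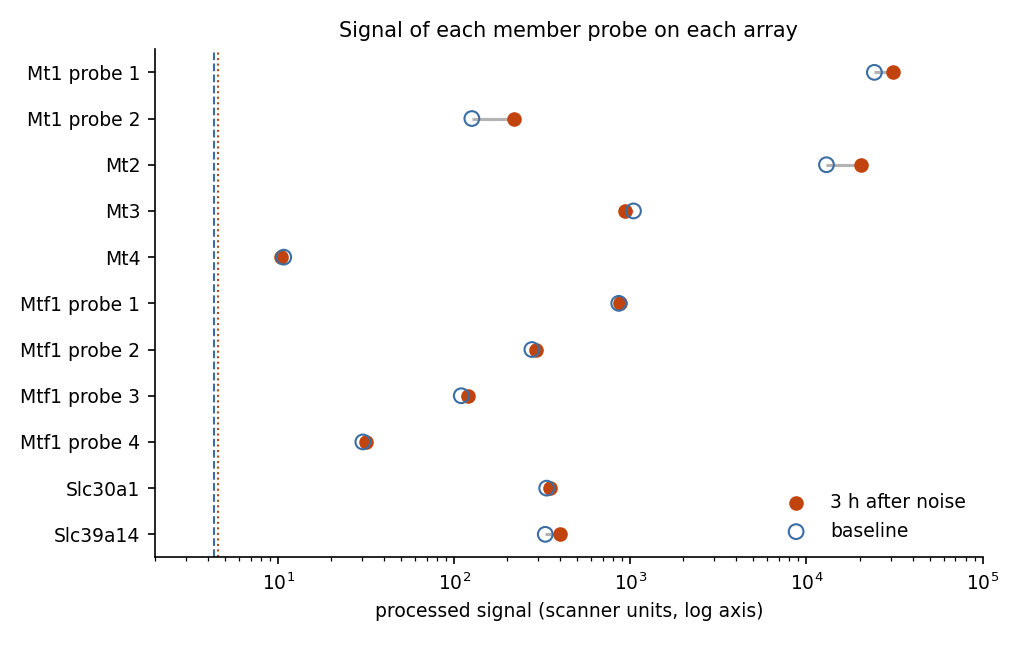
Processed signal of each of the 11 probes (log axis, scanner units) on the noise array (filled) and the baseline array (open), with the lowest signal that any probe well above background had on each array as vertical lines (dotted for noise, 4.58, and dashed for baseline, 4.35). The Mt2 probe and the dim Mt1 probe show the widest gaps between the arrays, and the Mt3 and Mt4 probes had the lower signal on the noise array.

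The promoters of Mt1, Mt2, Mt3 and Slc30a1 are shown because metal response elements are the sites through which MTF-1 acts. Mt1 and Mt2 had log2 ratios above 0, and Mt3 and Slc30a1 below 0 after the main scaling. Whether these sites bear on the ratios was not tested. Each is the RefSeq window (GRCm38.p6, + strand) of 300 bases, from 250 before to 50 after the start used there, with metal response element cores in capitals. A core was searched as TGCACNC or TGCGCNC on both strands. The windows are chr8:94178839-94179138 for Mt1, chr8:94172368-94172667 for Mt2, chr8:94152357-94152656 for Mt3 and chr1:191906531-191906830 for Slc30a1.
Mt1: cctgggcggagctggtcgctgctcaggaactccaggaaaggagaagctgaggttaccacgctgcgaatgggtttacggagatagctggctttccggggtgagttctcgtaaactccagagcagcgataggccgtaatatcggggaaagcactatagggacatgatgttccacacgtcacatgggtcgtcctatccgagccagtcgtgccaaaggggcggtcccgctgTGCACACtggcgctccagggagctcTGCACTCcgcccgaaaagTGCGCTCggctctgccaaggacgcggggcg
Mt2: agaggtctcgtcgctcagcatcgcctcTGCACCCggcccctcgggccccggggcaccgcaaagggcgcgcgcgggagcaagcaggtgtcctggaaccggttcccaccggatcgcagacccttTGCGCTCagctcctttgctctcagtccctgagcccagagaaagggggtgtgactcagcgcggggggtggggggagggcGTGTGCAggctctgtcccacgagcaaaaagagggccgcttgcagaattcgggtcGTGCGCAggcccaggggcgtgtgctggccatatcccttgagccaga
Mt3: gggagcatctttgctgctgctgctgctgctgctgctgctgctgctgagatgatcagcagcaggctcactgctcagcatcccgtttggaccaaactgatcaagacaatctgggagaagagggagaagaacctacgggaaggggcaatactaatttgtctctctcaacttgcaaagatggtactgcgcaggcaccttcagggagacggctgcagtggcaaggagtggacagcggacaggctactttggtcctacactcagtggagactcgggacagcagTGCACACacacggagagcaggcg
Slc30a1: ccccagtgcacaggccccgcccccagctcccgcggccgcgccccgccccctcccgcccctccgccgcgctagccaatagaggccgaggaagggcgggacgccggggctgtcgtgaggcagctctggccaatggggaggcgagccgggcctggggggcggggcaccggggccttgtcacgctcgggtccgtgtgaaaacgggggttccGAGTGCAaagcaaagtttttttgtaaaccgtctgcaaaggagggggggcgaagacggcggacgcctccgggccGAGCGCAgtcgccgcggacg

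Within these windows Mt2 held 4 such cores and Mt1 held 3, against 2 in Slc30a1, 1 in Mt3, 1 in Mt4 and 0 in Mtf1. Of 32851 promoter windows of this length, 25.7% held at least 1 core, 1.97% at least 3 and 0.517% at least 4. Counted from the RefSeq start used for each window, the Mt1 cores lay at positions -23, 3 and 21, on the + strand. In Mt2 they lay at -223 and -128 on the + strand and at -50 and 5 on the - strand. Whether transcription in the cochlea begins at these starts was not examined, so the counts and positions hold for these windows only. The antioxidant response element core TGACNNNGC was found once in Mt2 and once in Slc30a1 and in 12.4% of all windows. The glucocorticoid receptor hexamer AGAACA was found once, in Mtf1 (19.0% of all windows), and the STAT core TTCNNNGAA in none of the 6 windows (8.30% of all). Sequence outside the windows was not searched, so a motif not found here can still lie elsewhere near these genes. No match of one motif overlapped a match of another in these windows. These letter matches are descriptions and say nothing of binding.

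**Figure D2:**
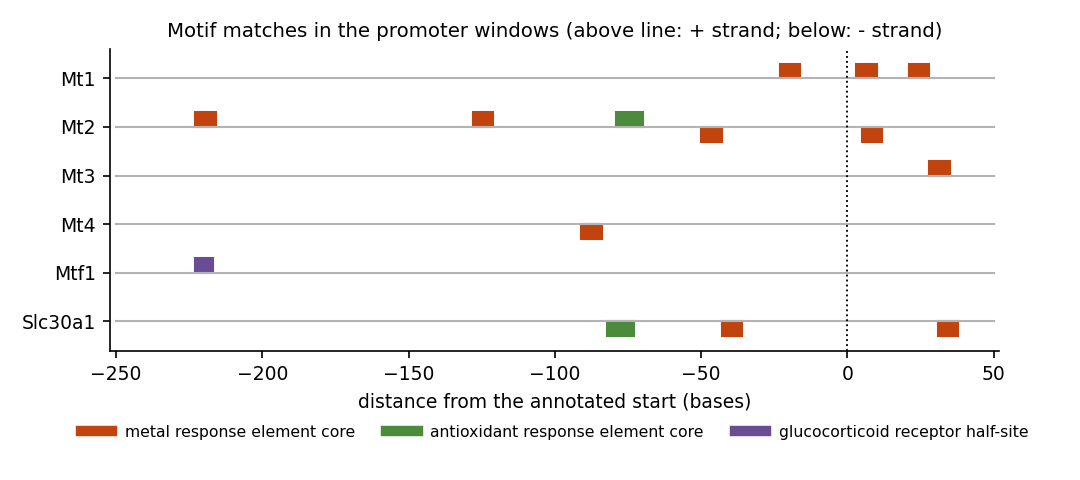
Positions of the motif matches in the 6 promoter windows, as distance in bases from the annotated start (dotted line), with matches on the + strand above and on the - strand below each line. Within these windows Mt1 and Mt2 hold 3 and 4 metal response element cores, and Mtf1 holds none.

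Mt3 and Mt4, the tissue-restricted metallothioneins, were lower on the noise array. Mt3 had a signal of 935 after noise and 1042 at baseline, giving a log2 ratio of -0.34, and 13.1% of measured genes were at least as low. Its probe lies on chromosome 8 from 96677927 to 96677986 (mm9). Mt4 had signals of 10.4 after noise and 10.8 at baseline, giving a log2 ratio of -0.24. The 60 bases of its probe are placed over positions 96662155 to 96662693 (mm9), a stretch of 539 bases. Mt4 was dim, and the lowest signal of any probe well above background was 4.58 after noise and 4.35 at baseline. The 5 probes of the 4 metallothionein genes thus lie within 42.1 kb of 1 chromosome, with Mt1 and Mt2 above 0 and Mt3 and Mt4 below 0 under each of the scalings tried.

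Most measured markers of central nervous tissue, where Mt3 is mainly expressed, were lower on the noise array, as Mt3 was. Of 11 central glia markers, 10 were measured, 9 of these lay below 0 and 4 were at least 2-fold lower, with a median log2 ratio of -0.76. The 2-fold count was 3 with spike-in scaling and 3 with the normexp background. Their summed level, in multiples of each array's 75th percentile, was 16.3 after noise and 31.6 at baseline, most of it from Aldoc, a glycolytic enzyme gene of astrocytes. Slc1a2, the astrocyte glutamate transporter gene, was at -1.78 (-0.95, short of 2-fold, without the filter on dim probes) and Olig1, an oligodendrocyte lineage factor gene, at -1.43. Opalin, a myelin membrane protein gene of oligodendrocytes, passed the background call at baseline alone. Of 12 central neuron markers, 10 were measured and 8 of these were below 0, with a median of -0.43. With spike-in scaling 7 were below 0 with a median of -0.21, and with the normexp background 8 with a median of -0.30. Their summed level was 10.1 (noise) against 15.6 (baseline), most of it from Zic1, a transcription factor gene. Slc6a5 and Neurod6 passed the background call at baseline alone. The signals were 1.70 (noise) and 184 (baseline) for Slc6a5, and 0.966 (noise) and 6.71 (baseline) for Neurod6. Among the 10 measured genes, 2 were at least 2-fold lower, the inhibitory neuron genes Slc32a1 (-3.25) and Gad2 (-2.90). Gad2 was measured by 1 of its 3 probes, with signals of 10.3 (noise) and 68.1 (baseline). Its ratio was -1.07 with the normexp background and -1.09 without the filter on dim probes. Of the 10 genes, 1 was at least 2-fold higher. That was Pcp2, a marker gene of cerebellar Purkinje cells, at 1.60, with signals of 264 after noise and 76.5 at baseline. The part of these tissues in the Mt3 value was not tested, and in bulk RNA fewer cells of a type and less RNA per cell cannot be told apart.

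Of 12 markers of stratified squamous epithelium, where Mt4 is expressed, 7 were measured, while 26528 of all 37067 gene names were. All 7 lay below 0, with a median of -0.19, while 4 of them lay above 0 with spike-in scaling. The squamous keratin gene Krt4 and the cornified envelope genes Ivl, Sprr1b and Sprr3 were not well above background on either array. Krt13 passed the background call at baseline alone, with signals of 0.949 after noise and 6.58 at baseline. Krt10, a keratin gene of the upper epidermal layers, had signals of 332 after noise and 318 at baseline. Its log2 ratio was -0.12 after scaling, so its sign depends on the scaling. Krt14, a basal cell keratin gene, had signals of 73.1 after noise and 81.5 at baseline, a ratio of -0.34. Krt5, the basal partner of Krt14, was lowest at -0.86. The part of such epithelium in the Mt4 value was not tested.

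Mtf1, which encodes the zinc sensor itself, was nearly equal on the arrays by 4 probes. The signals were 875 (noise) and 859 (baseline) for the brightest probe, 289 (noise) and 276 (baseline) for the second, 119 (noise) and 109.6 (baseline) for the third and 31.7 (noise) and 30.3 (baseline) for the dimmest. After scaling, the log2 ratios ran from -0.16 to -0.06 with a median of -0.12. The 4 probes span 0.10 in log2, less than the SD of 0.27 between probes of a gene. Before scaling each of the 4 probes was slightly brighter on the noise array, and with spike-in scaling the median was 0.11, so the sign of this small difference depends on the scaling. From brightest to dimmest, the probes lie on chromosome 4 (mm9) at 124521937 to 124521996, 124526365 to 124526424, 124482221 to 124482280 and, over a stretch of 1373 bases, 124480584 to 124481956.

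Slc30a1, the MTF-1 target that exports zinc, had signals of 350.2 after noise and 335 at baseline. Its log2 ratio was -0.12, and 0.10 with spike-in scaling. Its probe lies on chromosome 1 from 193736760 to 193736819. Slc39a14, the importer induced by interleukin-6 in liver, had signals of 397 after noise and 329 at baseline, giving a log2 ratio of 0.09, and 33.2% of measured genes were at least as high. Its probe lies on chromosome 14 from 70703394 to 70703453.

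**Figure D3:**
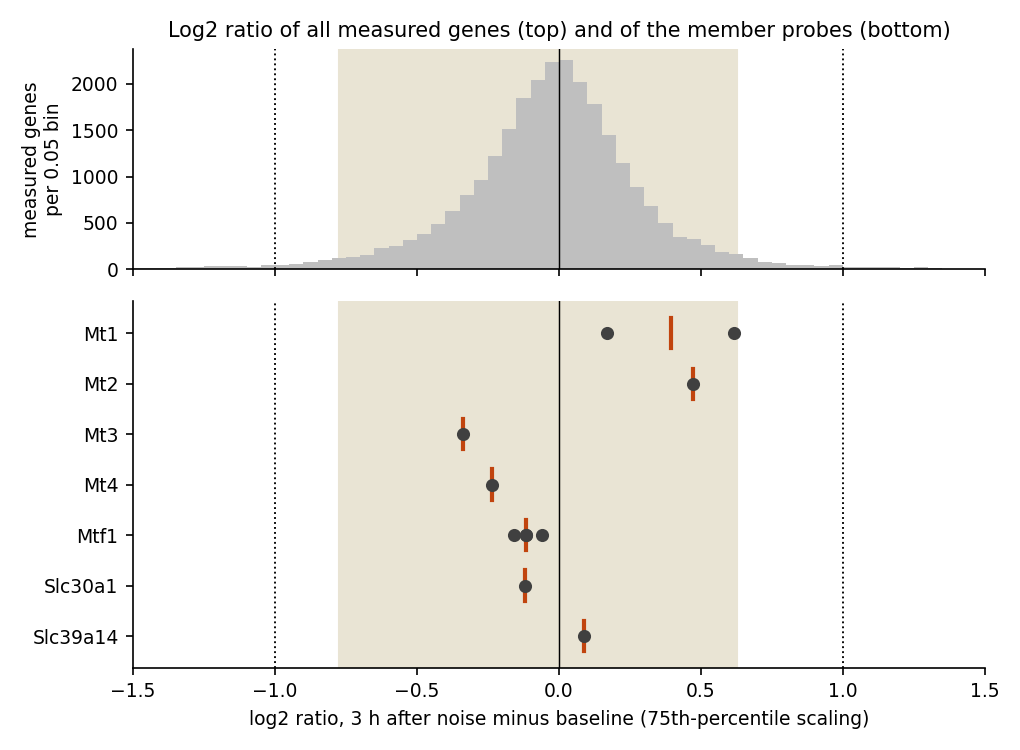
Log2 ratio, noise minus baseline, of all measured genes (top, number of genes per bin, with 128 genes beyond 1.5 in either direction not drawn) and of the 11 probes (bottom, points, with the median of each gene as a bar). The shaded band is the central 95% of measured genes (-0.77 to 0.63) and the dotted lines mark 2-fold. All 7 genes lie inside the band, with Mt2 at 0.47 and Mt1 at 0.39, the median of a bright probe at 0.17 and a dim one at 0.62. The sign of Mtf1 and Slc30a1 is reversed by spike-in scaling.

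In order of log2 ratio the genes ran Mt2, Mt1, Slc39a14, Mtf1, Slc30a1, Mt4 and Mt3. Neighbours in this order lay within 0.27 of each other, apart from Mt1 and Slc39a14, which were 0.39 and 0.09. That 0.27 is the SD of single probes about the mean of their gene, and a difference between probes varies more. The Mt1 value is the median of a bright probe at 0.17 and a dim one at 0.62. By the bright probe alone, Mt1 lay within 0.27 of Slc39a14. The SD thus does not separate Mt1 from Slc39a14. The spread of ratios was narrower among bright probes. Among the 6520 probes with a signal of at least 1000 on both arrays, 95% of the log2 ratios fell between -0.44 and 0.44. Mt2 at 0.47 lay just outside this range, and the bright Mt1 probe at 0.17 inside it.

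The wider zinc transporter families were close to 0, with 1 exception. Among the Slc30 (ZnT) family, which exports zinc from the cytosol or loads it into vesicles, 8 of 10 genes were measured, with a median log2 ratio of 0.01 and none past 2-fold. In this family 4 genes lay above 0, and 7 with spike-in scaling. The genes farthest from 0 were Slc30a10, a manganese exporter gene, at -0.24, Slc30a7, a Golgi transporter gene, at 0.21, and Slc30a5, a gene of the secretory pathway, at 0.18. Slc30a3, the synaptic vesicle zinc transporter gene of forebrain neurons, and Slc30a8, that of insulin granules in pancreatic beta cells, were not well above background on either array. Among the Slc39 (ZIP) family, which brings zinc into the cytosol, 13 of 14 genes were measured, with a median of 0.05 and 9 above 0 (10 with spike-in scaling, 7 with the normexp background).

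Slc39a12, which encodes the brain-enriched zinc importer ZIP12, was the member of these families past 2-fold. Its signal was 81.9 after noise and 266 at baseline, giving a log2 ratio of -1.88, or 3.69-fold lower. Of all measured genes, 48 (0.181%) were at least as low. The single Slc39a12 probe lies on chromosome 2 from 14416223 to 14416282 (mm9), and its ratio stayed between -1.88 and -1.31 under the alternatives tried. It was lower beside the central glia and neuron markers given above, whose part in it was not tested. Next in the family were Slc39a4, the intestinal zinc importer gene, at -0.34, and Slc39a7, an importer gene of the endoplasmic reticulum and Golgi, at 0.27.

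**Figure D4:**
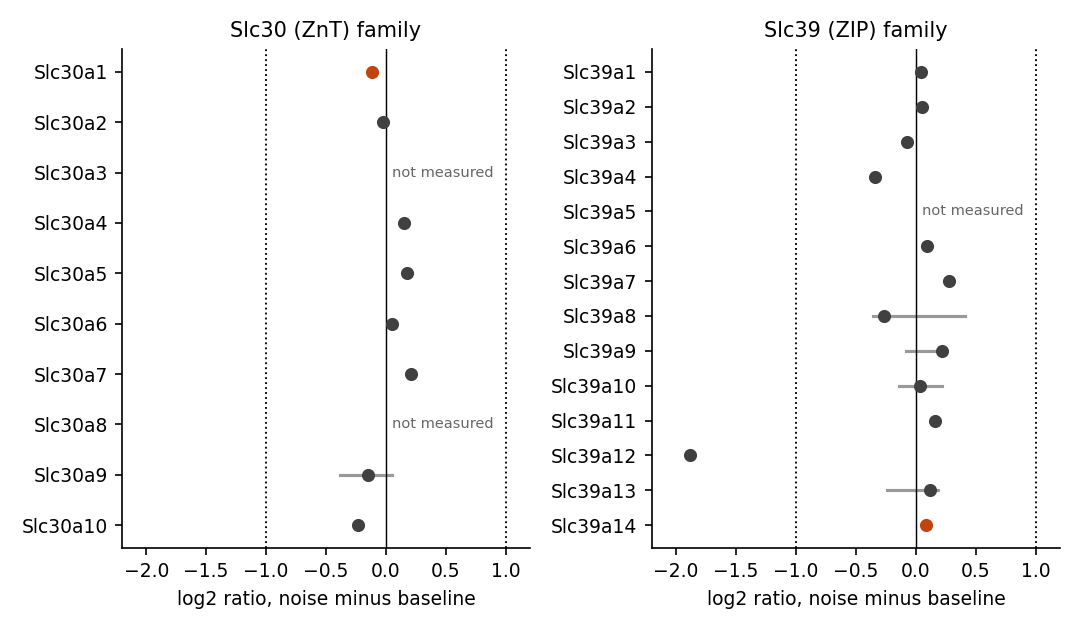
Log2 ratio, noise minus baseline, of the Slc30 and Slc39 families (points, gene medians; lines, range over probes; red, Slc30a1 and Slc39a14; dotted lines, 2-fold). Slc39a12 lies at -1.88, while the other measured genes lie between -0.34 and 0.27 (between -0.12 and 0.49 with spike-in scaling).

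Genes known to respond to MTF-1 other than the metallothioneins did not stand out. Of 7 such genes, all measured, 5 were above 0 and none was past 2-fold, with a median of 0.04. Of all measured genes 47.5% were above 0. The list was not split by whether MTF-1 raises or lowers a gene, so its count and median do not measure MTF-1 activity. Pgf, the placental growth factor gene, was highest at 0.23, Csrp1, a LIM-domain protein gene, lowest at -0.23, and Slc30a1 was at -0.12. Gclc, for the catalytic subunit of glutathione synthesis, was at 0.11. Copper handling genes, since metallothioneins also bind copper, had a median of 0.00 over 13 measured genes, with 7 above 0 and none past 2-fold. The farthest from 0 were Sco2, a copper chaperone gene of cytochrome oxidase, at -0.35, Atp7b, a copper-exporting ATPase gene, at -0.29, and Slc31a1, the copper importer gene, at 0.28. With spike-in scaling 6 of the 7 MTF-1 targets and 10 of the 13 copper genes were above 0.

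Both inducing pathways named above had higher members on the noise array. Of 10 glucocorticoid-induced genes, 9 were above 0 and 1 was at least 2-fold higher, with a median of 0.62. That gene was Fkbp5, whose product binds the glucocorticoid receptor complex, at 1.19 (normexp background 0.47, stricter filter on dim probes 0.86). Of 14 measured interleukin-6, STAT3 and acute-phase genes, 11 were above 0 and 2 were at least 2-fold higher, with a median of 0.28. These were Il6 at 1.65, with signals of 25.8 (noise) and 7.25 (baseline) and a ratio of 0.25 with the normexp background, and Socs3, which damps cytokine receptor signalling, at 1.12. Over all measured genes 47.5% were above 0 and 0.611% at least 2-fold higher. With the normexp background 9 of the 14 were above 0 and 1 at least 2-fold higher, and with spike-in scaling 13 and 3. The glucocorticoid list kept 9 above 0 in both, with 0 (normexp) and 2 (spike-in) at least 2-fold higher. Mt2 (0.47) and the median of the 2 Mt1 probes (0.39) lay between the list medians of 0.28 and 0.62. Of the Mt1 probes, the bright one (0.17) lay below both list medians and the dim one was at 0.62. Whether either pathway bears on Mt1 or Mt2 was not tested.

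Markers of other tissues also differed between the arrays. Adipocyte markers were lower, with 11 of 12 below 0, 7 at least 2-fold lower and a summed level of 30.4 (noise) against 90.9 (baseline). Ucp1, the uncoupling protein gene of brown fat, was at -2.81. Skeletal muscle markers were lower in 12 of 12 genes, with a median of -0.88 (11 of 12 with spike-in scaling), and a summed level of 51.0 (noise) against 70.6 (baseline). Most of both sums came from Pvalb, a calcium-binding protein gene also expressed in neurons, with signals of 13420 (noise) and 15093 (baseline) and a ratio of -0.35. Of 7 hepatocyte markers 4 were measured, at a summed level of 0.530 (noise) against 0.619 (baseline), and both arrays lacked a signal well above background for the albumin gene Alb. All 18 cochlear markers were measured, and 14 were above 0 with a median of 0.25 (12 above 0 with the normexp background, 16 with spike-in scaling). Farthest from 0 were Slc26a5 at -0.75, with signals of 5.62 (noise) and 8.35 (baseline), Pou4f3 at 0.67 and Otoa at 0.60. With the normexp background these were at -0.19, 0.23 and 0.44. Without the filter on dim probes Slc26a5 was at 0.11. Coch, a matrix protein gene of the cochlea, had signals of 20264 (noise) and 14059 (baseline). Mt1 and Mt2 are expressed in many cell types, and the part of these marker differences in their values was not tested.

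**Figure D5:**
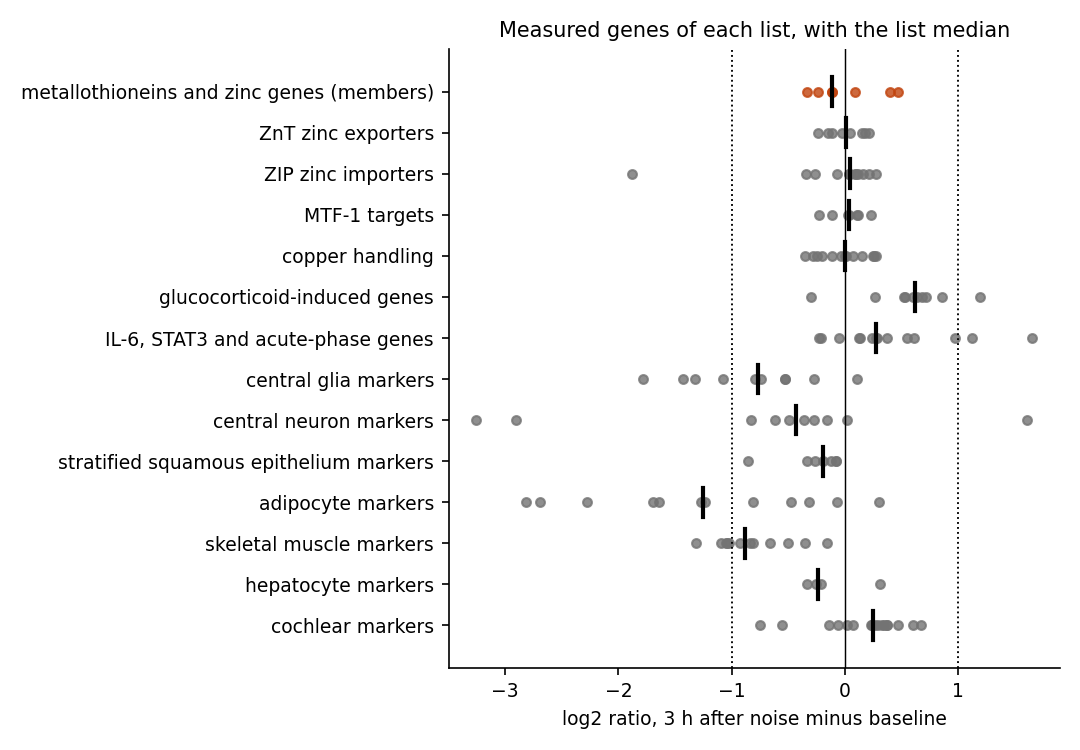
Log2 ratio, noise minus baseline, of the 7 genes (red) and of the measured genes of each list (grey points; black bars, medians; dotted lines, 2-fold). The 7 genes lie between -0.34 and 0.47, the zinc, MTF-1 and copper lists have medians between 0.00 and 0.05 (0.22 to 0.27 with spike-in scaling), and central glia, adipocyte and skeletal muscle markers have medians of -0.76, -1.25 and -0.88.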

How the data were processed

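Agilent 1-colour mouse arrays were used, 1 per sample, and per the file headers both arrays shared 1 slide and 1 scan. The authors' deposited scanner files hold intensity values from Agilent Feature Extraction 11.5.1.1, per the file headers, with background subtraction, spatial detrending and surrogate values for the dimmest spots. Per the labels, 0.1 micrograms of total RNA went into Cy3 labelling. The value table deposited by the authors is in log2 units. Each of its columns equalled log2 of that array's processed signal, set to at least 1, minus 8.30 (noise) or 8.12 (baseline), with column medians of -2.81 and -2.79, no centring per gene and direction as in the scanner files.

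Flagged outlier spots were left out (77 of 59305 non-control spots on the noise array, 58 on the baseline array), log2 values of repeat spots were averaged, and the 75th percentile of an array's non-control probes was subtracted from them. A probe was measured where well above background on both arrays (41647 of 56590), and a gene took the median log2 ratio of its measured probes. With 1 array per group no p-value was computed, a size rule of 2-fold was used, and the number of arrays limits the precision. No likeness of pattern between genes was computed, since 2 arrays give 1 difference per gene. All 7 genes are named with each probe. From the ZnT, ZIP, MTF-1 and copper lists the genes past 2-fold and the 3 farthest from 0 are named, and from other lists up to 3 by size. Other named list genes (Slc30a3, Slc30a8, Gclc, Opalin, Slc6a5, Neurod6, Krt4, Krt13, Ivl, Sprr1b, Sprr3, Aldoc, Zic1, Krt10, Pvalb, Alb, Coch) were chosen after their values were seen. The 7 genes and the 13 lists were chosen with earlier results of these data known. Gene names are those of the array design. The RefSeq table (GRCm38.p6) held the accessions of 10 of the 11 probes, under the same symbols, and promoter windows for 6 of the 7 genes. Exon and untranslated-region positions on mm9, the build of the probe coordinates, are not given. Python 3.11.15, R 4.3.3 and limma 3.58.1 (normexp) were used, and the ratio step was tested on simulated data.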

Additional observations from a re-analysis of the deposited data

How the results depend on the processing

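Over 8 alternatives (normexp background, median, quantile and spike-in scaling, no filter or a stricter filter on dim probes, the brightest probe, and the authors' value table) none of the 7 genes passed 2-fold. The lowest and highest log2 ratios were 0.17 (brightest probe) and 0.62 (spike-in scaling) for Mt1, 0.47 and 0.69 for Mt2, -0.35 and -0.12 for Mt3, and 0.07 and 0.31 for Slc39a14. Mt4 ran from -0.24 to -0.01 and was not measured with the stricter filter. Mtf1 and Slc30a1 were above 0 with spike-in scaling (0.11 and 0.10) and below 0 in the other 7. Before scaling, the log2 ratios of the 8 spike-in probes ranged from -0.20 to 0.40. The counts of measured genes at least 2-fold higher and lower were 162 and 332. They were 56 and 74 with the normexp background, 351 and 186 with spike-in scaling, and 672 and 1296 without the filter on dim probes; the stricter filter gave 192 lower. The cause of these shifts was not tested beyond the number of genes entering, which was 37067 with no filter and 20692 with the stricter one. Among list medians, those of adipocyte (-0.82), central glia (-0.47) and skeletal muscle markers (-0.58) were closer to 0 with the normexp background, and that of hepatocyte markers was 0.11 with the stricter filter. Among named list genes, whose alternatives were added after the data were seen, the ratio of Slc1a2 was -0.95 without the filter on dim probes and that of Krt5 -0.37 with the normexp background. No paired analysis was possible because there was 1 array per group, which also leaves no replicate to omit.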
